A study of Mus musculus with 18 samples.

Results

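The genes described here encode the proteins of the mitochondrial ribosome. They were taken as all rows of the deposited count table whose gene symbol starts with Mrpl or Mrps followed by a number, which gave 77 of 20295 genes, 48 with an Mrpl and 29 with an Mrps symbol. All 77 passed the filter on low counts, as did 12156 genes in all.

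Mitochondrial ribosomes translate the few mRNAs of the mitochondrial genome, which encode core subunits of the respiratory chain and of ATP synthase. All their proteins are encoded in the nucleus, made in the cytosol and imported, whereas their rRNAs come from mitochondrial DNA. A large subunit (Mrpl) joins amino acids and a small subunit (Mrps) decodes the mRNA, and brown adipocytes, which burn fatty acids through the respiratory chain to make heat, are rich in mitochondria.

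RNA was sequenced from BAT-LgT cells, a wild-type mouse line of brown preadipocytes made immortal by SV40 large T antigen and turned into adipocytes in culture. At day 7 they were left without inhibitor or received Atglistatin and CAY10499, which block the lipases ATGL and HSL (Lipase Inh.), for 1 h, and were then treated for 3 h with Vehicle, with isoproterenol (ISO, 100 nM), which activates β-adrenergic receptors, or with SR-3420, a ligand that releases the ATGL co-activator ABHD5 and so starts lipolysis without a receptor signal. This gave 6 groups of 3 samples, 3 without inhibitor (Vehicle, ISO and SR-3420) and the same treatments after the inhibitors (written Lipase Inh. + the treatment). The labels give 10 µM for SR-3420 while the text of the study gives another dose, and which was used was not settled. All samples come from a single immortalised line, so differences between lines or animals were not measured.

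The libraries held between 10310447 and 21205032 counts, except Lipase Inh. + SR-3420 replicate 2 with 4263755 counts, in which the gene Lars2 took 18.3% (0.0397% to 0.121% in the other 17). All 9 adipocyte markers (among them Ucp1, Cidea and Adipoq) lay above 1 CPM (counts scaled to the size of the library) in every group, with a sum between 8929 and 14774 CPM. The 5 markers of preadipocytes or fibroblasts summed to between 88.4 and 137 CPM, and those of macrophages, muscle and endothelium to at most 5.88, 1.53 and 0.472 CPM. The highest adipocyte markers were Fabp4 (group means from 2394 to 3663 CPM), Adipoq (2508 to 3593 CPM) and Lipe (1513 to 3078 CPM). Group means of Ucp1 ran from 2.37 to 675 CPM, of Elovl3 from 3.40 to 55.7 CPM and of Cidea from 49.6 to 65.9 CPM. The summed adipocyte markers, Ucp1 among them, were highest with ISO (13450 to 14774 CPM) and lay between 10297 and 11654 CPM with Vehicle. The preadipocyte markers were highest with SR-3420 (135 to 137 CPM, against 88.9 to 118 CPM with Vehicle). What either contributes to the values below was not tested. In bulk RNA, fewer cells of a type and less RNA per cell cannot be told apart.

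Values are given under 2 scalings. TMM scaling assumes that most genes do not change between libraries, whereas total-count scaling divides by all counts of the library. Scd1 alone, a fatty acid desaturase, made up 7.67% to 8.61% of the counts with ISO and 4.10% to 5.47% with Vehicle. With total counts, the median log2 fold change of all genes tested was -0.33 for ISO vs Vehicle, -0.18 for SR-3420 vs Vehicle and -0.24 for Lipase Inh. + ISO vs Lipase Inh. + Vehicle, against -0.02, -0.02 and -0.01 with TMM. A change of scaling moves the log2 fold changes of all genes in a comparison by nearly the same amount. The distance between a median of members and that of all genes therefore hardly depends on it, and its agreement between scalings is no further evidence. Fold changes are log2 values ± SE from edgeR, adjusted p-values are over all 12156 genes, and calls required one no higher than 0.05. ISO plus inhibitors stands below for Lipase Inh. + ISO compared with Lipase Inh. + Vehicle. CPM values are TMM-scaled unless stated.

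Members took 0.427% ± 0.0318 of all counts with Vehicle (SD, n = 3), 0.347% ± 0.00457 with ISO, 0.315% ± 0.0138 with SR-3420, 0.396% ± 0.0189 with Lipase Inh. + Vehicle, 0.431% ± 0.0207 with Lipase Inh. + ISO and 0.349% ± 0.0363 with Lipase Inh. + SR-3420. In the last group, replicates 1 and 3 had 0.384% and 0.352%. Replicate 2, in which Lars2 took 18.3% of the counts and so lowered the share of every other gene, had 0.311%. On the TMM scale their sum was 4136, 3831 and 3621 CPM in the Vehicle libraries, 3853, 3983 and 3813 CPM with ISO and 3119, 3334 and 3079 CPM with SR-3420. With inhibitors it was 3629, 3823 and 3444 CPM for Vehicle, 4539, 4842 and 4466 CPM for ISO and 3564, 3537 and 3316 CPM for SR-3420. All 3 Lipase Inh. + ISO libraries thus lay above the other 15 and all 3 SR-3420 libraries below the Vehicle libraries, and the ISO libraries lay within the range of Vehicle. With total-count scaling, ISO (3436 to 3524 CPM) lay below Vehicle (3948 to 4583 CPM), and Lipase Inh. + ISO (4155 to 4542 CPM) overlapped Vehicle and lay just above Lipase Inh. + Vehicle (3766 to 4145 CPM).

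**Figure D1:**
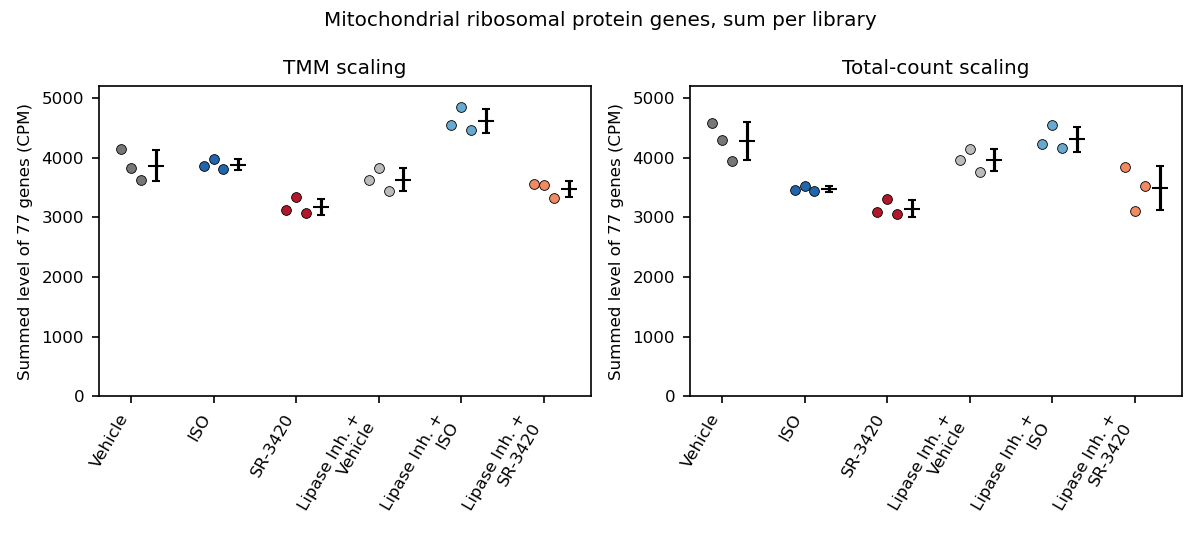
Summed level of the 77 genes in each of the 18 libraries (CPM), with TMM scaling on the left and total-count scaling on the right. Points are libraries and bars the mean ± SD (n = 3). With TMM the Lipase Inh. + ISO libraries (4466 to 4842 CPM) lie above all others and ISO overlaps Vehicle, whereas with total counts ISO lies below Vehicle.

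Per counted kilobase, the mean level over all samples ran from 2.63 CPM for Mrps18c to 313 CPM for Mrps6, with a median of 34.6. After Mrps6 came Mrpl34 (124 CPM per kilobase), a small basic protein of the large subunit, and Mrpl12 (123 CPM per kilobase), which forms the mobile stalk that recruits translation factors. The lowest were Mrps18c, Mrpl23 (3.39 CPM per kilobase) and Mrpl39 (6.45 CPM per kilobase). Mean counts per sample ran from 17.4 for Mrps18c to 2624 for Mrps6, and the value for Mrps6 is uncertain because its span holds another gene, Slc5a3. In all, 8 members overlap another gene (Mrpl19, Mrpl24, Mrpl41, Mrpl49, Mrpl53, Mrps23, Mrps25 and Mrps6), and since the sources do not say whether counting used strand, their reads may include those of the partner.

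The members lie on 17 chromosomes. By the deposited positions (mm9), 24 of 77 (31.2%) have a head-to-head neighbour, a gene on the other strand that starts at most 1000 bases before, or 100 bases into, the member, whereas 1500 of the 12156 genes tested do (12.3%). Among these neighbours are other mitochondrial genes, Ndufb5 of complex I beside Mrpl47, Peo1 of the mitochondrial DNA helicase beside Mrpl43 and Sars2, the mitochondrial seryl-tRNA synthetase, beside Mrps12. A single pair joins 2 members: Mrpl46 (chr7:85920227-85927975, minus strand) and Mrps11 (chr7:85928017-85937874, plus strand) start 42 bases apart.

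RefSeq promoters (GRCm38.p6, 250 bases before to 50 after the start) were found for 68 members, 74 promoters in all. The letters CCGGAAG of ETS factors such as GABPA occurred on either strand in 25 of 74 (33.8%) against 17.1% of the 11797 promoters of genes tested and 8.86% of all 32851, and AAGATGGC of YY1 in 12 (16.2%, against 4.37% and 2.75%). GCGCATGCG of NRF1 occurred in 7 (9.46%, against 3.72% and 1.75%). The E-box CACGTG (9.46%, against 9.88% and 7.15%) and the cAMP response element TGACGTCA (2.70%, against 3.11% and 1.79%) lay close to the shares of the genes tested. The median GC content was 58.5% in member promoters and 60.7% in those of genes tested.

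Shown are 5 promoters, from 200 bases before to 30 after the start, of the pair partner Mrps11, of Mrps2 and Mrpl47, which rose most with ISO plus inhibitors, and of Mrpl36 and Mrps12, which were among those that fell most with SR-3420. They were chosen after their values were seen, and capitals mark matches to the letters above. They come from chr7:78782931-78783160 (plus strand), chr2:28467866-28468095 (plus), chr3:32736726-32736955 (minus), chr13:73330809-73331038 (plus) and chr7:28741792-28742021 (minus), all in GRCm38.p6.
Mrps11: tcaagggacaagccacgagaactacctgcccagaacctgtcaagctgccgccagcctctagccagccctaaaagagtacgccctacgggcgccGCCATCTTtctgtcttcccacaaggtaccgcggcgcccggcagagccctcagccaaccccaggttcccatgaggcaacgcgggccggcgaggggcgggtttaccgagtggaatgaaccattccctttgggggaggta
Mrps2: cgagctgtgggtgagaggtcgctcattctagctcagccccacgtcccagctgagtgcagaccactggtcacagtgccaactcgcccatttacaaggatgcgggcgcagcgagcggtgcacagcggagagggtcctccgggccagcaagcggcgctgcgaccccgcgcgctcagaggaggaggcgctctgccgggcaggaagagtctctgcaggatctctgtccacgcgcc
Mrpl47: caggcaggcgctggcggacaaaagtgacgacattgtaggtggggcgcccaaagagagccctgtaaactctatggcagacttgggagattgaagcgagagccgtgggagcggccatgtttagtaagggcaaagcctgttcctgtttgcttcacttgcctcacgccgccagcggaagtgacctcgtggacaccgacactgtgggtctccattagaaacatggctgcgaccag
Mrpl36: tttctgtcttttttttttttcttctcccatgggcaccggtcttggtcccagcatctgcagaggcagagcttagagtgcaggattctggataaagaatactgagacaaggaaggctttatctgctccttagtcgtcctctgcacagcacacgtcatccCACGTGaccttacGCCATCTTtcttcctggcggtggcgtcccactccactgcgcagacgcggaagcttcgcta
Mrps12: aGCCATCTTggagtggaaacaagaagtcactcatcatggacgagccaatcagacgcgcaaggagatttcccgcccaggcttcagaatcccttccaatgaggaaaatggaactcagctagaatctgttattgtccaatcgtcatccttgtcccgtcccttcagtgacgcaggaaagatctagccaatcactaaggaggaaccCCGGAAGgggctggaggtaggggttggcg
The YY1 letters stand on the minus strand of all 3 that hold them, from -107 to -100 in Mrps11, from -30 to -23 in Mrpl36 and from -199 to -192 in Mrps12, counted from the start. Mrpl36 also holds the E-box from -43 to -38 and Mrps12 the ETS letters from 2 to 8. None of the letters searched occurred in the windows of Mrps2 and Mrpl47.

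SR-3420 was compared with Vehicle to see what lipolysis without a receptor signal did to these genes. Of the 77 members, 45 were lower and 1 was higher, with a median of -0.33, whereas 25.4% of all genes tested were lower and 26% higher, with a median of -0.02. The change was small per gene, as no member passed 2-fold (6.33% of all genes did, in either direction). With total counts, 56 members were lower and 0 higher (median -0.49), against 35.9% and 16% of all genes (median -0.18). The median of members lay 0.31 below that of all genes, a distance that the scaling hardly affects. Of the large subunit 29 of 50 genes were lower, and of the small subunit 15 of 26.

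The most reduced member was Mrpl36, a small zinc-binding protein of the large subunit whose promoter is shown above. Its level was 46.1, 44.5 and 41.7 CPM with Vehicle and 27.4, 24.4 and 28.2 CPM with SR-3420. The groups did not overlap, and the fold change was -0.72 ± 0.08 (adjusted p = 3.62e-07). Mrps12, a protein of the decoding centre, measured 34.7, 35.6 and 27.4 CPM with Vehicle and 21.2, 21.4 and 17.9 CPM with SR-3420 (-0.70 ± 0.11, adjusted p = 2.32e-05), again without overlap. Mrpl34 measured 105, 101 and 73.0 CPM with Vehicle and 52.8, 66.2 and 54.4 CPM with SR-3420 (-0.69 ± 0.13, adjusted p = 0.000202). Replicate 3 was the lowest Vehicle library for these genes and still lay above all SR-3420 libraries. Further falls with log2 values between -0.71 and -0.65 were seen for Mrpl28, Mrps25, Mrps24, Mrpl42 and Mrpl14. Mrpl14 sits at the subunit interface, and Mrps24 is the homolog of a bacterial protein at the mRNA entry.

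The single member that rose was Mrps18b, one of 3 mitochondrial proteins related to bacterial S18, with 45.6, 37.9 and 36.4 CPM with Vehicle and 50.2, 53.9 and 50.5 CPM with SR-3420 (0.36 ± 0.09, adjusted p = 0.00196). With total counts its value was 0.20 and no longer passed the test. Mrpl12 stood at the edge of the call. Its Vehicle libraries spread from 88.5 to 152 CPM and its SR-3420 libraries from 76.3 to 105 CPM, so that the groups overlapped (-0.46 ± 0.19, adjusted p = 0.0488). The call for Mrpl12 was lost without Vehicle replicate 1 (-0.25, adjusted p = 0.326), without Vehicle replicate 2 (0.0925), and without SR-3420 replicate 1 (0.175) or 3 (0.139), as well as with DESeq2 (0.105), with RLE size factors (0.0506) and without the shallow Lipase Inh. + SR-3420 replicate 2 (0.0517). Without Vehicle replicate 3, 2 members were higher instead of 1.

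**Figure D2:**
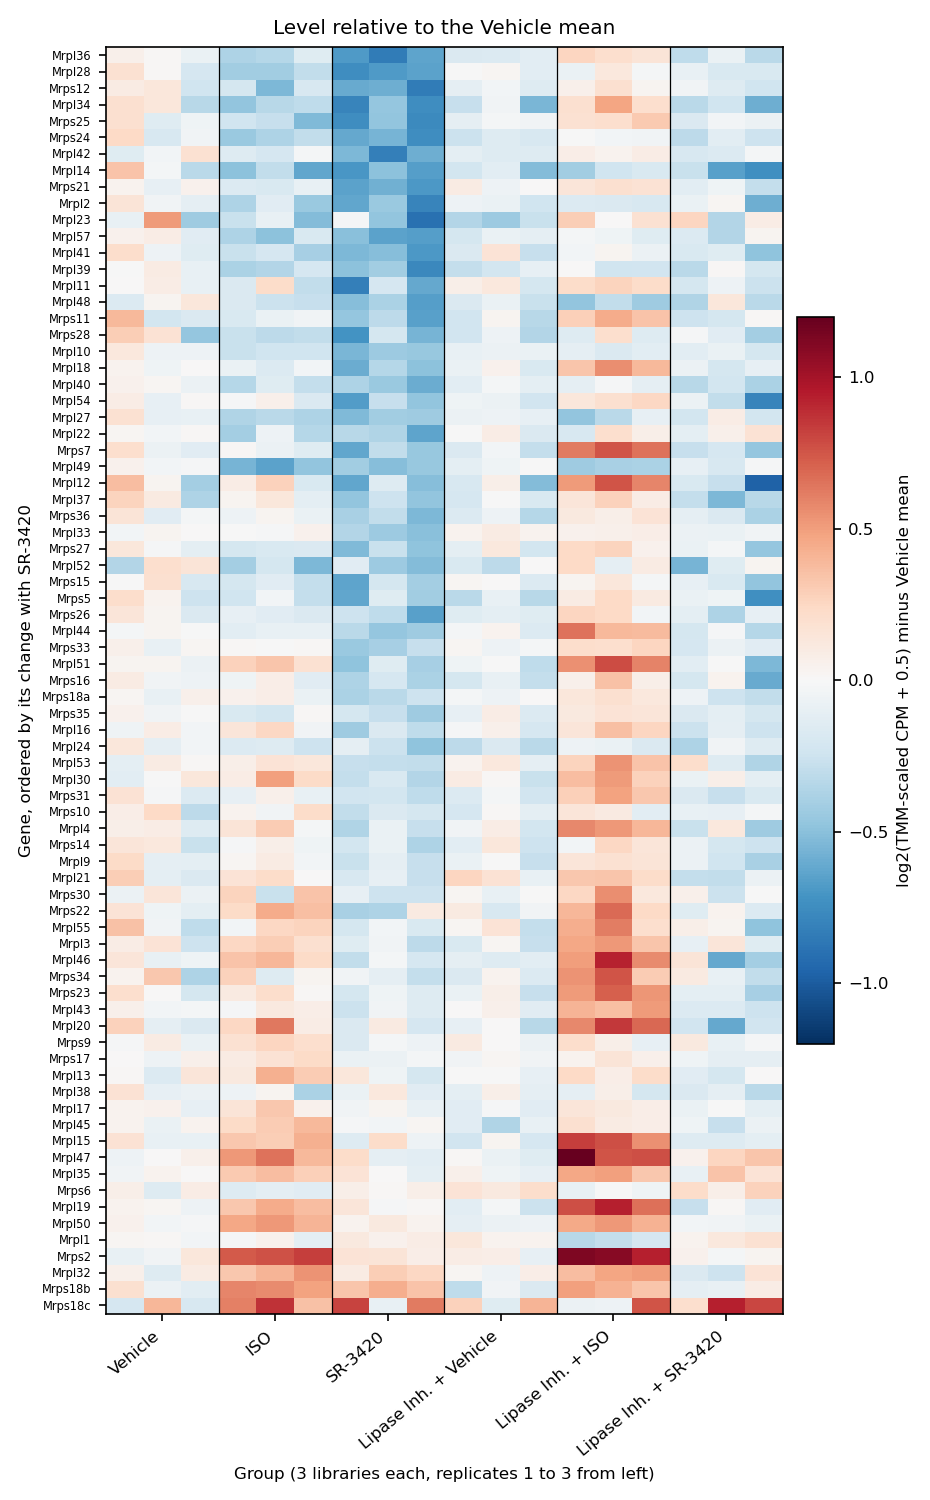
Level of each of the 77 genes (rows, ordered by the change with SR-3420) in each library (columns, 3 per group), as log2(TMM-scaled CPM + 0.5) minus the Vehicle mean. Blue is lower and red higher. Most rows are blue in the SR-3420 columns, and the Lipase Inh. + ISO columns are red for Mrps2, Mrpl47, Mrps7 and Mrpl12 among others.

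ISO activates the same lipases through the β-adrenergic receptor and cAMP. On the TMM scale 14 members were higher with ISO (18.2%) and 15 lower (19.5%), with a median of -0.04. Both shares lay below those of all genes (26.8% and 25%, median -0.02). No member passed 2-fold, whereas 9.11% of all genes did. With total counts, 1 member was higher and 46 lower (median -0.34), against 12.3% and 49.4% of all genes (median -0.33). The median of members lay 0.02 below that of all genes, again a distance that the scaling hardly affects. In the large subunit 11 genes were higher and 12 lower of 50, and in the small subunit 3 and 3 of 26.

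Mrps2, which holds the place of bacterial S2 on the small subunit (mm9 chr2:28323586-28326697, plus strand), changed most among the members called. It measured 91.8, 95.0 and 107 CPM with Vehicle and 163, 167 and 174 CPM with ISO (0.78 ± 0.07, adjusted p = 8.02e-09), and it was the 1 member that remained higher with total counts (0.47). Mrpl47, a protein near the tunnel exit, rose from 6.95, 7.26 and 7.59 CPM to 10.6, 11.7 and 9.66 CPM (0.56 ± 0.15, adjusted p = 0.00384). Mrps18b measured 60.1, 59.3 and 55.9 CPM with ISO (0.54 ± 0.09), above all Vehicle libraries. Mrpl50 rose by 0.47 ± 0.06, Mrpl32 by 0.43 ± 0.10, Mrpl19 by 0.38 ± 0.09, Mrpl15 by 0.34 ± 0.11 and Mrpl35 by 0.33 ± 0.09. With total counts these 7 genes had values from 0.02 to 0.25 and none passed the test. The call for Mrpl15 was also lost without Vehicle replicate 2 (adjusted p = 0.0636) or 3 (0.0586) and without ISO replicate 3 (0.0509).

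Among members that fell with ISO, Mrpl49 changed most (mm9 chr19:6053630-6057751, minus strand, overlapping Syvn1). It measured 133, 125 and 127 CPM with Vehicle and 87.2, 81.9 and 92.2 CPM with ISO (-0.56 ± 0.06, adjusted p = 1.98e-07). The groups lay far apart, and the fall was also seen with total counts (-0.86). Others were Mrpl14 (-0.49 ± 0.14), Mrpl34 (-0.39 ± 0.13), Mrpl28 (-0.39 ± 0.09), Mrps24 (-0.39 ± 0.09), Mrpl27 near the peptidyl transferase centre (-0.36 ± 0.10), Mrpl57 (-0.36 ± 0.09) and Mrps25 (-0.35 ± 0.10). Vehicle replicate 1 was the highest Vehicle library for most of these. Without it, 9 members were lower instead of 15, and Mrpl14 (-0.30, adjusted p = 0.0881), Mrpl34 (0.106), Mrps25 (0.0593) and Mrps12 (0.0761) lost the call. Mrpl34 lost it also without Vehicle replicate 2 (0.0796) or ISO replicate 1 (0.0790), and Mrps12 without Vehicle replicate 2 (0.0929) or ISO replicate 2 (0.122).

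With the inhibitors alone, none of the 77 members was called by edgeR or by DESeq2 (median -0.09, 6 with an unadjusted p under 0.05). Of the members, 67 had a negative value, and the median of all genes was -0.002. The SD of the members' median between replicates, combined over the groups compared, was 0.12. All genes tested gave 0.485% higher and 0.428% lower, with 0.0494% past 2-fold, so that 0 of 77 lies near the share of all genes. With total counts no member was called either (median -0.11, 4 with an unadjusted p under 0.05), against 0.239% and 0.329% of all genes. For Lipase Inh. + SR-3420 against Lipase Inh. + Vehicle, none of the 77 was called by either tool (median -0.06, 5 with an unadjusted p under 0.05). Of all genes, 2.99% were higher, 1.36% lower and 0.296% past 2-fold. With total counts, which the Lars2 reads of replicate 2 enlarge, 0 were called (median -0.16, 21 with an unadjusted p under 0.05), against 0.938% and 1.89% of all genes (median -0.10). Without the shallow replicate 2 of Lipase Inh. + SR-3420 the count was still 0, with a median of -0.08. Mrpl36, lowered most by SR-3420 alone, measured 38.9, 39.2 and 40.3 CPM with Lipase Inh. + Vehicle and 35.5, 41.6 and 35.1 CPM with Lipase Inh. + SR-3420, and these ranges overlapped (-0.10 ± 0.09, adjusted p = 0.625).

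With inhibitors present, ISO raised 43 of the 77 members. Against Lipase Inh. + Vehicle, 43 were higher and 3 lower (median 0.29), whereas all genes gave 29.4% higher and 28.3% lower (median -0.01). Past 2-fold were 2 members, Mrps2 and Mrpl47, against 13.1% of all genes. With total counts 21 members were higher and 8 lower (median 0.07), against 16.2% and 42.1% of all genes (median -0.24). The counts and medians thus depended on the scaling. The members' median lay 0.30 (TMM) and 0.31 (total counts) above that of all genes, a distance that the scaling hardly affects. The large subunit had 27 of 50 genes higher and the small subunit 15 of 26.

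Mrps2 measured 104, 104 and 91.5 CPM with Lipase Inh. + Vehicle and 213, 209 and 187 CPM with Lipase Inh. + ISO (1.03 ± 0.07, adjusted p = 6.25e-11). Mrpl47 (mm9 chr3:32626419-32635677, minus strand) measured 7.36, 6.84 and 6.53 CPM and 17.6, 12.6 and 12.8 CPM (1.04 ± 0.15, adjusted p = 2.70e-06). Neither gene's groups overlapped, and both remained higher with total counts (0.80 and 0.82). Mrps7, a protein of the head of the small subunit, measured 98.9, 109 and 91.2 CPM with Lipase Inh. + Vehicle and 172, 189 and 176 CPM with Lipase Inh. + ISO (0.84 ± 0.10, adjusted p = 1.29e-07). Mrpl12 measured 102, 123 and 82.0 CPM and 168, 199 and 177 CPM (0.82 ± 0.19, adjusted p = 0.000791). The lowest Lipase Inh. + ISO library of either gene lay above the highest Lipase Inh. + Vehicle library.

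Mrpl19 (0.93 ± 0.08), Mrpl15 (0.87 ± 0.11), Mrpl20, whose bacterial homolog binds early in large subunit assembly (0.86 ± 0.14), and Mrpl46 (0.82 ± 0.14) were also among the 8 largest rises, and all 8 passed the test with total counts. Mrps11, the head-to-head partner of Mrpl46, rose by 0.55 ± 0.15 on the TMM scale, but not with total counts (0.33). The 3 members that fell were Mrpl1 of the L1 stalk, Mrpl49 and Mrps6. Mrpl1 measured 32.1, 30.1 and 30.1 CPM with Lipase Inh. + Vehicle and 23.1, 23.9 and 25.4 CPM with Lipase Inh. + ISO (-0.35 ± 0.08, adjusted p = 0.000709). Mrpl49 fell to 95.1, 98.0 and 98.1 CPM from between 118 and 128 CPM (-0.34 ± 0.06), and Mrps6 to between 182 and 192 CPM from between 210 and 223 CPM (-0.22 ± 0.07). All 3 also fell with total counts.

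**Figure D3:**
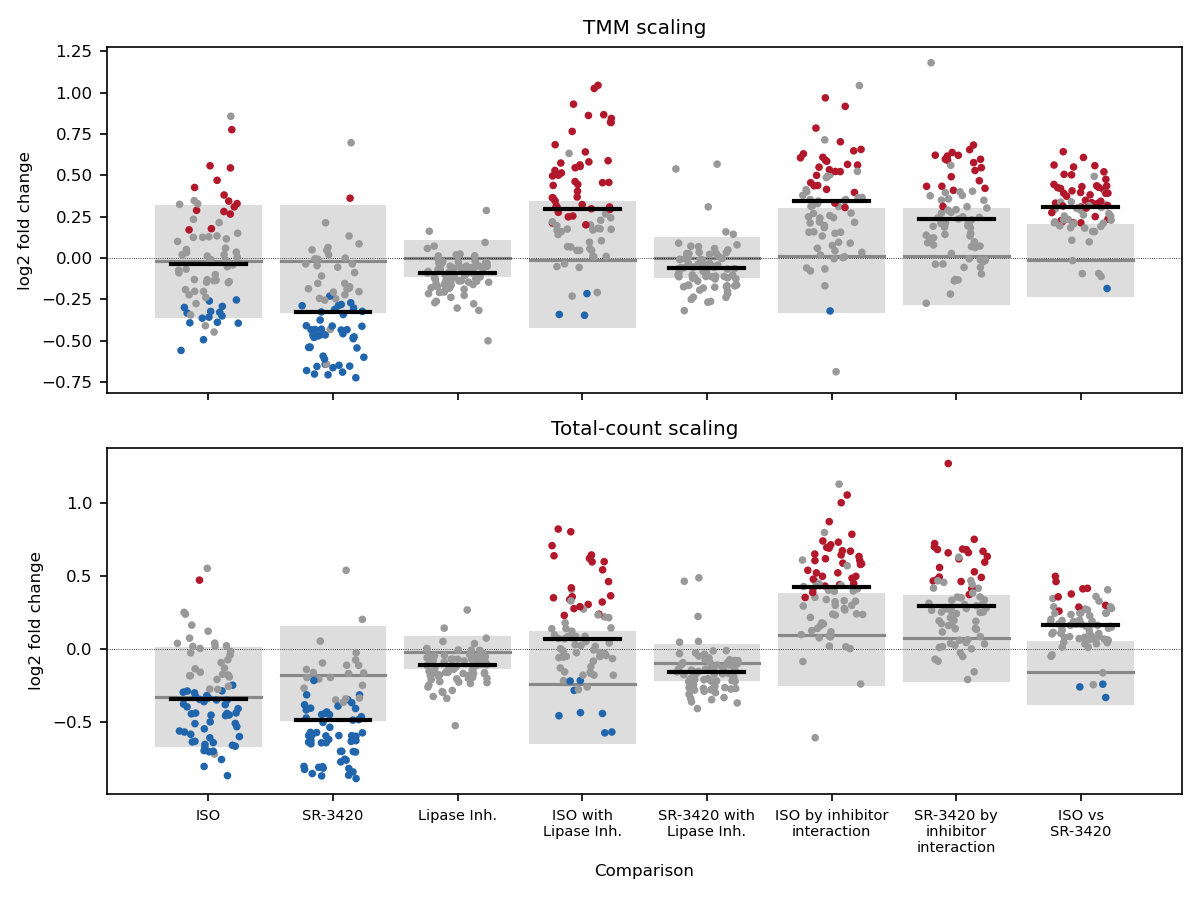
Log2 fold change of each member (points) in the 8 comparisons, with TMM scaling above and total-count scaling below. Red points were called higher, blue lower and grey not called. Black lines are the members' medians, and grey boxes and lines give the quartiles and median of all 12156 genes. The members' median lies below that of all genes for SR-3420 and above it for ISO with Lipase Inh., distances that the scaling hardly affects.

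The ISO effects with and without inhibitors share no samples. Across the 77 members they correlated with Pearson's r = 0.56 and Spearman's rho = 0.53, a description only, as genes are not independent replicates and the points share libraries. Of the 14 members higher with ISO, 12 were also higher with ISO plus inhibitors (85.7% of the former and 27.9% of the latter), where 55.8% of all members were. Of the 15 lower with ISO, 3 (Mrpl34, Mrpl36 and Mrps25) were higher with ISO plus inhibitors (20% and 6.98%). Of the 45 members lower with SR-3420, 23 were among the 43 higher with ISO plus inhibitors (51.1% and 53.5%), close to that 55.8%. The same overlaps were not counted for all genes tested, so none of them is shown to be particular to the members.

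**Figure D4:**
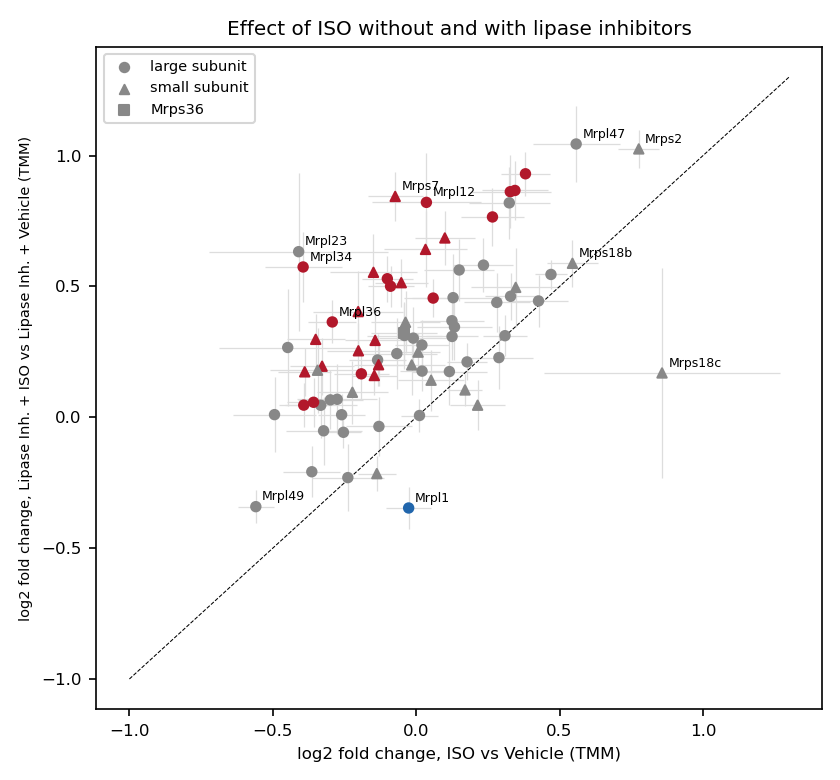
Log2 fold change of each member with ISO alone (x axis) and with ISO with lipase inhibitors (y axis), TMM scaling, with SE. Circles are large subunit and triangles small subunit genes, the square is Mrps36, and the dashed line marks equal effects. Red points had a higher and the blue point (Mrpl1) a lower log2 fold change with inhibitors by the interaction test. Most points lie above the line, with Mrps2 and Mrpl47 at the top and Mrpl49 at the lower left.

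The difference itself was tested as an interaction, that is the change in inhibited cells minus that in cells without inhibitor. For ISO, 26 members were higher and 1 lower (median 0.34), against 14.9% and 16.6% of all genes (median 0.01), and no called member passed 2-fold on the TMM scale (6.89% of all genes), whereas Mrpl34 did with total counts (1.05). With total counts 34 were higher and 0 lower (median 0.43), against 17% and 12% of all genes (median 0.09). Without Lipase Inh. + ISO replicate 2 the number higher was 16, and without Lipase Inh. + Vehicle replicate 1 or 3 it was 17 and 16. Of the small subunit 13 of 26 genes and of the large subunit 13 of 50 were higher, shares whose difference was not tested.

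Mrpl34 had the largest called interaction with ISO (0.97 ± 0.19, adjusted p = 0.000418). It measured 66, 72.9 and 74.0 CPM with ISO and 105, 127 and 106 CPM with Lipase Inh. + ISO, whereas Vehicle (73.0 to 105 CPM) and Lipase Inh. + Vehicle (62.6 to 88.8 CPM) overlapped. Mrps7 followed with 0.92 ± 0.14 (adjusted p = 1.82e-05), Mrpl12 with 0.79 ± 0.27 (adjusted p = 0.0281) and Mrps11 with 0.70 ± 0.21 (adjusted p = 0.0145). Mrpl1 went the other way (-0.32 ± 0.11, adjusted p = 0.0321). The call for Mrps11 was lost without Vehicle replicate 1 (0.46, adjusted p = 0.0716). That for Mrpl12 was lost without any one of Vehicle replicate 1, ISO replicates 1 and 3, Lipase Inh. + Vehicle replicates 1 and 3 and Lipase Inh. + ISO replicate 2 (adjusted p from 0.0517 to 0.114), and by DESeq2 (0.0612). That for Mrpl1 was lost without any one of ISO replicates 1 and 2, Vehicle replicate 3, Lipase Inh. + Vehicle replicate 1 and Lipase Inh. + ISO replicates 1 and 2 (adjusted p from 0.0626 to 0.0876), and with total counts (-0.24, adjusted p = 0.199).

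For SR-3420, 19 members had a higher effect with inhibitors and 0 a lower one (median 0.24, edgeR), none of the called ones past 2-fold, against 12.5% and 14.8% of all genes (median 0.01) and 3.82% past 2-fold. The SD of the members' median between replicates, combined over the groups compared, was 0.16. At an unadjusted p under 0.05 there were 27, and DESeq2 called 18 higher and 0 lower. With total counts 22 were higher and 0 lower (median 0.30), against 12.9% and 10.2% of all genes (median 0.07), and Mrpl23 passed 2-fold (1.27). On the TMM scale Mrpl23, with few counts, had the highest value but was not called (1.18 ± 0.45, adjusted p = 0.0536). Without the shallow Lipase Inh. + SR-3420 replicate 2 the count was 15, without SR-3420 replicate 3 it was 11, and without Lipase Inh. + SR-3420 replicate 3 it was 24 with 1 lower. The largest among those called were Mrpl42 (0.68 ± 0.14, adjusted p = 0.00124), Mrps12 (0.66 ± 0.16, adjusted p = 0.00410), Mrps25 (0.64 ± 0.14, adjusted p = 0.00211) and Mrpl36 (0.62 ± 0.12, adjusted p = 0.000583). For Mrpl42, SR-3420 gave 17.4, 14.2 and 16.8 CPM and Vehicle 22.9, 24.9 and 28.9 CPM, whereas Lipase Inh. + SR-3420 gave 22.2, 22.7 and 25.1 CPM and Lipase Inh. + Vehicle 23.4, 22.8 and 22.9 CPM.

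ISO and SR-3420 were also compared directly. On the TMM scale 41 members were higher with ISO and 1 lower (median 0.31), against 15.8% and 13.9% of all genes (median -0.01), with 2.04% of all genes and no member past 2-fold. With total counts 10 were higher and 3 lower (median 0.16), against 6.38% and 25% of all genes (median -0.16). Both medians lay 0.32 above that of all genes, a distance that the scaling hardly affects. Without SR-3420 replicate 3, 23 were higher on the TMM scale. The largest differences were those of Mrps2 (0.64 ± 0.07, adjusted p = 6.58e-07), Mrpl51 (0.61 ± 0.11, adjusted p = 0.000279), Mrpl30 (0.56 ± 0.12, adjusted p = 0.000970) and Mrpl47 (0.56 ± 0.15, adjusted p = 0.00743), and all 4 were also higher with total counts. Mrpl51 measured 149, 155 and 140 CPM with ISO, 87.9, 111 and 93.0 CPM with SR-3420 and 126, 126 and 117 CPM with Vehicle, so that ISO lay above and SR-3420 below Vehicle. Mrps6 was the member lower with ISO (-0.18 ± 0.07, adjusted p = 0.0415). Its call was lost when any one of the 6 libraries was left out, with adjusted p-values from 0.0512 to 0.110.

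**Figure D5:**
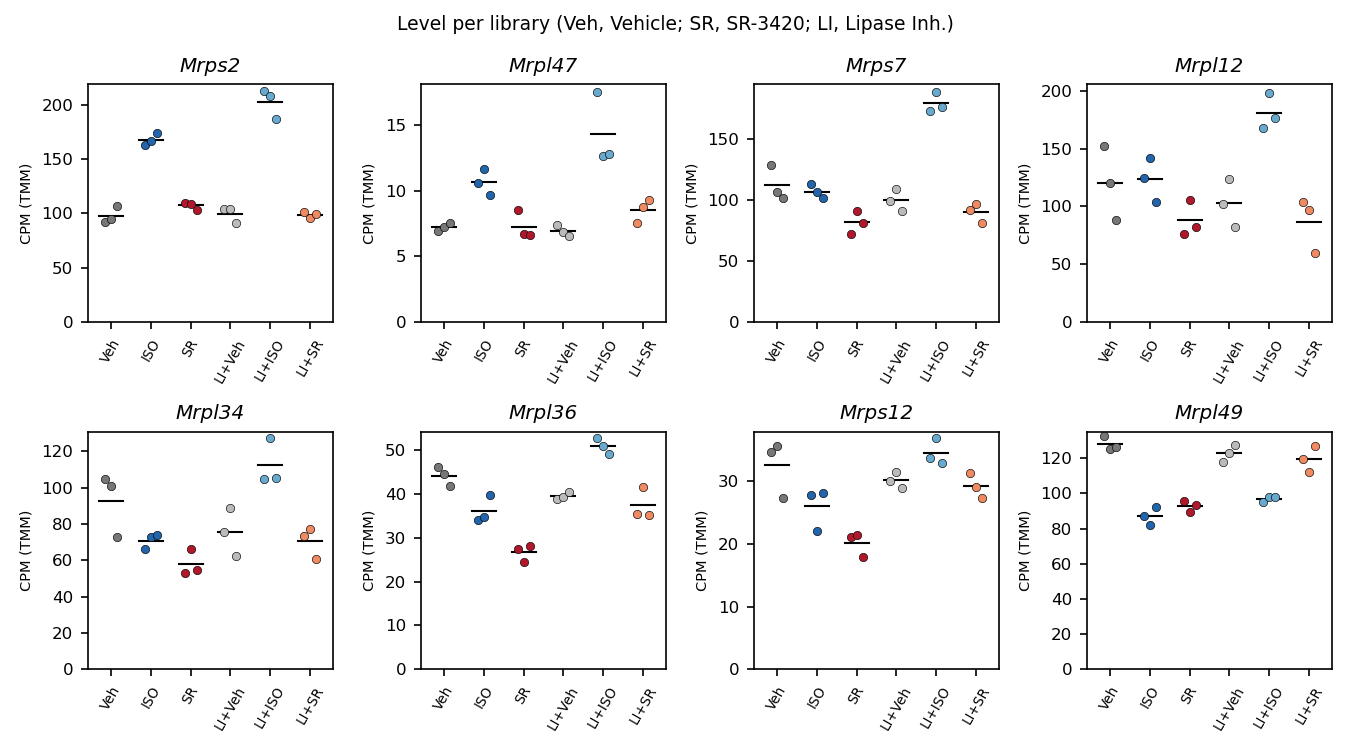
Level of 8 members in each library (CPM, TMM scaling, each axis from 0), with lines at the group means. Mrps2 and Mrpl47 are highest in ISO and Lipase Inh. + ISO, Mrps7 and Mrpl12 in Lipase Inh. + ISO, Mrpl36 and Mrps12 are lowest in SR-3420, and Mrpl49 is lower in ISO, SR-3420 and Lipase Inh. + ISO.

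Members with distinct positions in the ribosome were followed separately. Mrpl10, the base of the stalk that carries Mrpl12, measured 151, 133 and 133 CPM with Vehicle, 115, 117 and 117 CPM with ISO and 94.5, 102 and 101 CPM with SR-3420, so that both stimuli lay below Vehicle (-0.25 ± 0.06 and -0.49 ± 0.06). It measured between 123 and 128 CPM with Lipase Inh. + ISO and between 130 and 132 CPM with Lipase Inh. + Vehicle (-0.06 ± 0.06, adjusted p = 0.446). Whether Mrpl10 and Mrpl12 differed was not tested. Mrpl45, on the membrane-facing side of the tunnel exit, rose with ISO (0.31 ± 0.08) and with ISO plus inhibitors (0.31 ± 0.08) but had values of 0.00 and 0.09 with total counts, neither past the test. Its value with SR-3420 was -0.01 ± 0.08.

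The 3 relatives of bacterial S18 had unlike patterns. Mrps18b was the member that rose with SR-3420, with ISO and with ISO plus inhibitors (0.59 ± 0.09). Mrps18a, which sits on the large subunit, fell with SR-3420 (-0.32 ± 0.08, adjusted p = 0.00156). With ISO it measured 44.8, 45.7 and 40.8 CPM against 44.0, 40.5 and 45.1 CPM with Vehicle (0.02 ± 0.08), a value that turned to -0.29 with total counts. Mrps18c lay between 0.695 and 2.13 CPM in all libraries and passed no test with all libraries in. With ISO its value was 0.86 ± 0.41 (adjusted p = 0.0878), and without Vehicle replicate 2 it was 1.22 and passed (adjusted p = 0.0416). Mrps30, a large subunit protein despite its symbol, rose by 0.35 ± 0.13 with ISO plus inhibitors (adjusted p = 0.0250). That call was lost with total counts (0.12) and without Lipase Inh. + ISO replicate 2 (0.22, adjusted p = 0.176) or Lipase Inh. + Vehicle replicate 2 (0.0693) or 3 (0.0507). Mrps36 bears a ribosomal symbol but is known as a part of the 2-oxoglutarate dehydrogenase complex. It fell with SR-3420 (-0.43 ± 0.12, adjusted p = 0.00378), as most ribosomal members did, and rose with ISO plus inhibitors (0.32 ± 0.11, adjusted p = 0.0200), a call lost with total counts (0.10) and without Lipase Inh. + Vehicle replicate 3 (0.113) or Lipase Inh. + ISO replicate 3 (0.0644).

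Members were also split by a fixed list of those with a bacterial homolog. Of the S18 relatives it holds Mrps18c only, so Mrps18a and Mrps18b were counted as not listed, as was Mrps36. With SR-3420, 25 of 45 listed and 20 of 32 not listed were lower (medians -0.30 and -0.36). With ISO plus inhibitors 21 of 45 and 22 of 32 were higher (medians 0.23 and 0.31), differences that were not tested. Members with the YY1 letters in the promoter had a median of -0.47 with SR-3420 (12 genes) and those without -0.31 (56 genes). For the NRF1 letters the order was the opposite, with -0.23 (7 genes) and -0.41 (61 genes), and for the ETS letters the medians were -0.38 (25 genes) and -0.41 (43 genes). With ISO plus inhibitors, members with and without the YY1 letters had medians of 0.28 and 0.29. Members with a head-to-head neighbour had medians of -0.39 with SR-3420 and 0.35 with ISO plus inhibitors, and those without -0.32 and 0.29. The change with SR-3420 correlated weakly with counted length across members (Spearman's rho = 0.25, n = 77), as it did across all genes tested (rho = 0.29), and with mean level by rho = 0.09 (all genes 0.17). With ISO plus inhibitors rho was 0.09 for counted length, where all genes had the opposite sign (-0.10), and 0.10 for mean level (all genes 0.26). These are descriptions across genes of the same libraries.

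Genes that work with the mitochondrial ribosome were described from fixed lists, on the TMM scale. For these and the lists that follow, 25.4% of all genes tested were lower and 26% higher with SR-3420. With ISO 26.8% were higher and 25% lower, and with ISO plus inhibitors 29.4% and 28.3%. With total counts the shares were 35.9% and 16% with SR-3420, 12.3% and 49.4% with ISO, and 16.2% and 42.1% with ISO plus inhibitors. Of 6 further ribosomal proteins with other symbols, 5 were lower with SR-3420 (Dap3, Ict1, Chchd1, Aurkaip1 and Gadd45gip1, from -0.57 to -0.31) and 1, Ptcd3, was higher (0.24), a call not made with total counts (0.08). Of 15 mitochondrial translation factors, 7 were lower and 0 higher with SR-3420 (median -0.22), and 8 were higher and 1 lower with ISO plus inhibitors (median 0.26). Of 17 mitochondrial aminoacyl-tRNA synthetases, which charge the tRNAs, 9 were lower and 1 higher with SR-3420 (median -0.34), whereas 3 were higher and 3 lower with ISO plus inhibitors (median 0.02). Of 23 assembly and rRNA factors, 9 were lower and 2 higher with SR-3420, and 10 higher and 4 lower with ISO plus inhibitors. Of 10 genes of mitochondrial DNA transcription and maintenance the corresponding counts were 5 lower and 1 higher, and 4 higher and 2 lower. With total counts and SR-3420, 10 translation factors, 11 synthetases, 13 assembly factors and 6 genes of mitochondrial DNA were lower and 0 of each higher. The counts with ISO plus inhibitors were then 2 higher and 2 lower for translation factors (median 0.04), 2 and 5 for synthetases (median -0.21), 4 and 5 for assembly factors (median 0.00) and 3 and 3 for genes of mitochondrial DNA (median -0.17).

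The nuclear-encoded subunits of oxidative phosphorylation, which assemble with the products of this ribosome, gave 61 of 82 lower and 1 higher with SR-3420 (median -0.44), 12 higher and 4 lower with ISO (median 0.07) and 50 higher and 1 lower with ISO plus inhibitors (median 0.40). With total counts these were 71 and 0 (median -0.60), 0 and 31 (median -0.23), and 22 and 3 (median 0.17). The ribosomal proteins of the cytosol gave 11 of 82 lower and 11 higher with SR-3420 (median -0.10), against 45 of 77 lower and 1 higher for the mitochondrial ones. With total counts 32 were lower and 7 higher (median -0.26), against 56 and 0. With ISO plus inhibitors 45 of 82 were higher and 1 lower (median 0.34), against 43 and 3 of 77 for the mitochondrial ones, and with total counts 10 were higher and 2 lower (median 0.12), against 21 and 8. No test of the lists against each other was run.

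Of 9 nuclear regulators of mitochondrial biogenesis, 8 were higher with ISO, 7 with SR-3420 and 6 with ISO plus inhibitors, where 2 were lower. With total counts 3, 6 and 4 were higher, and 0, 0 and 2 lower. Ppargc1a, a co-activator of mitochondrial genes, measured 68.1, 86.6 and 72.4 CPM with Vehicle, 1063, 1011 and 1167 CPM with ISO and 332, 322 and 325 CPM with Lipase Inh. + ISO, where Lipase Inh. + Vehicle lay between 83.8 and 97.8 CPM. The rise was thus larger with ISO alone (3.83 ± 0.09) than with inhibitors (1.85 ± 0.08), with an interaction of -1.99 ± 0.12 (adjusted p = 3.62e-11), while the members' median interaction was 0.34. Esrra, a nuclear receptor that acts with this co-activator, measured 144, 142 and 88.0 CPM with Vehicle and 121, 134 and 113 CPM with ISO, but 268, 328 and 276 CPM with Lipase Inh. + ISO against 104, 156 and 90.2 CPM with Lipase Inh. + Vehicle. Its interaction was 1.35 ± 0.28 (adjusted p = 0.000801). Pprc1, a relative of Ppargc1a, rose with SR-3420 from 55.7, 57.9 and 67.3 CPM to 161, 155 and 160 CPM (1.40 ± 0.09), in the libraries in which 45 members fell.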

How the data were processed

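RNA-seq counts of 18 samples (6 groups of 3) were analysed. The authors aligned reads to mm9 with STAR 2.4.2a and summarised tags with HOMER, keeping a single read per position and length. They deposited whole-number counts per RefSeq gene from iRNA-seq. The study does not say whether the limit to a single read applies to the deposited counts, of which Mrps6 had a mean of 4.13 per counted base. The deposited counts are neither normalised nor filtered, and 0 columns belonged to other samples. Groups came from the sample titles. The study gives replicates as independent experiments, and the labels do not say what a replicate number marks, so p-values measure the spread between these samples of one line.

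In R 4.3.3, edgeR 4.0.16 (filterByExpr, minimum count 10 and minimum total count 15, TMM, 1 quasi-likelihood fit over all samples) tested 8 comparisons, adjusted by Benjamini-Hochberg. The whole fit was repeated with total counts. The SE is the log2 fold change divided by the square root of F. Medians of members have no SE, and their SD between replicates combines the groups compared, on the log2 scale. It was 0.098 for ISO, 0.11 for SR-3420, 0.10 for ISO plus inhibitors and 0.11 for SR-3420 with inhibitors. For ISO vs SR-3420 it was 0.087, and for the ISO interaction 0.14. The script was tested on simulated data. Starts are printed counting from 1.

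Members and lists were chosen with earlier results of these data known. Named members are those past 2-fold, the 8 largest changes per direction in 3 comparisons and the 4 largest in the other 5, the 3 highest and 3 lowest levels per kilobase, and members with a distinct role. Named genes outside the members were chosen after their values were seen, except that list genes past 2-fold could be named. Alternatives were RLE factors, DESeq2 1.42.0, other filters, only the groups compared, a replicate block, members without overlaps, members of low counts per base and leaving out each library.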

Additional observations from a re-analysis of the deposited data

Results flagged for a closer look

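The effects of the stimuli differed between cells with and without lipase inhibitors, by the interaction tests given in the report. For ISO, 26 members had a higher and 1 a lower log2 fold change with inhibitors than without, against 14.9% and 16.6% of all genes tested. The named ones were Mrpl34 (0.97), Mrps7 (0.92), Mrpl12 (0.79), Mrps11 (0.70) and Mrpl1 (-0.32), as log2 values on the TMM scale. For SR-3420, 19 members had a higher and 0 a lower log2 fold change with inhibitors, against 12.5% and 14.8% of all genes tested. The largest differences among those called were Mrpl42 (0.68), Mrps12 (0.66), Mrps25 (0.64) and Mrpl36 (0.62). A positive difference can be a smaller fall as well as a larger rise. Mrpl36 and Mrpl42 fell with SR-3420 alone, and their levels with inhibitors changed little.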

How the results depend on the processing

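With total counts in place of TMM, the members higher and lower with ISO were 1 and 46 (median -0.34), with SR-3420 the number higher was 0 (median -0.49), with ISO plus inhibitors 21 and 8 (median 0.069), and for ISO vs SR-3420 10 and 3 (median 0.16), while the 1 member lower in the ISO interaction was lost (0). With Scd1 also left out of the totals, an alternative chosen after seeing the data, these were 3 and 41 (median -0.29), 0 (median -0.48), 21 and 7 (median 0.080), 15 higher (median 0.21), 0, and 1 lower for SR-3420 plus inhibitors. Mrps18a with ISO turned to -0.29 and -0.23 in these settings. Without a filter on low counts the ISO interaction and ISO vs SR-3420 had 0 members lower, as the adjusted p-values of Mrpl1 (0.124) and Mrps6 (0.0694) passed 0.05. Leaving out 1 library at a time gave 9 to 16 members lower with ISO, 1 to 2 higher with SR-3420, 16 to 32 higher and 0 to 1 lower in the ISO interaction, 11 to 24 higher and 0 to 1 lower in the SR-3420 interaction, and 23 to 42 higher and 0 to 1 lower for ISO vs SR-3420. With the replicate number as a block, 2 members were higher with SR-3420 instead of 1, and the other counts stayed within 1.5 times of those without it. The numbers were not taken to pair the samples, as the deviations of samples with number 1 had a mean correlation of -0.0247 (pairs from -0.220 to 0.245). Samples with numbers 2 and 3 did deviate together, with means of 0.205 (0.0932 to 0.363) and 0.260 (0.165 to 0.400). What the numbers mark was not tested. Of 1142 values of named members under alternatives, 1063 kept direction and side of the threshold, 519 of them from leaving out 1 library. The scaling mattered more than this pool shows. With total counts alone, 56 of 73 results were kept, whereas 13 lost the call, 3 gained it and 1 changed direction. With Scd1 also left out, 58 of 73 were kept, and with the replicate block 73. Depth limits Mrps18c, Mrpl23 and Mrpl52 most, with mean counts of 17.4, 25.9 and 38.3 per library. The cause of these shifts was not tested. Shares of all genes with total counts are given in the report for each comparison, and the other settings were counted for members only.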

Other observations

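Among the list genes, Ftsj2, an rRNA methyltransferase of the mitochondrion, was the one outside the regulators that fell past 2-fold with SR-3420 (-1.11 ± 0.11, adjusted p = 3.40e-08), and its interaction with ISO was 1.11 ± 0.15 (adjusted p = 7.03e-06). Cars2, the mitochondrial cysteinyl-tRNA synthetase, rose with ISO plus inhibitors by 1.31 ± 0.14 (adjusted p = 4.93e-08). Both p-values come from edgeR over all genes. Myc rose with SR-3420 from 82.0, 80.4 and 74.2 CPM to 160, 150 and 153 CPM and fell with ISO plus inhibitors (-0.70 ± 0.08). Gabpa, the DNA-binding subunit of GABP, had a log2 fold change of 0.08 ± 0.06 with SR-3420 (adjusted p = 0.233) and of 0.87 ± 0.06 with ISO plus inhibitors (adjusted p = 1.93e-11).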
